A study of Mus musculus with 6 samples.

Results

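The carnitine shuttle carries fatty acids into mitochondria, and its 6 genes Slc22a5, Cpt1a, Slc25a20, Cpt2, Crat and Crot were compared in liver RNA of mice given a deproteinized extract of calf blood (DECB) and of saline controls. The genes were taken by symbol, through the RefSeq accession of each array probe: 8 probes of 39429 on the array carried the 6 symbols, and all 6 genes were among the 14805 tested. Male ICR mice, an outbred stock of 18 to 22 g, received DECB or normal saline into the stomach at 0.08 mL per 20 g of body weight each day for 35 days, with 12 mice per group. The analysis used 3 control arrays (control 1, 2 and 3) and 3 DECB arrays (DECB 4, 5 and 6). The study also timed how long mice tolerated a closed container, and the labels do not say whether livers were taken before or after it. The sample descriptions speak of 1 day for controls and 30 days for DECB, at odds with the 35 days of the protocol. No label links an array to one mouse, so p-values reflect the spread between these arrays, which may be technical.

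Long-chain fatty acids reach the cytosol of a liver cell as acyl-CoA, which the inner mitochondrial membrane does not let through. Slc22a5 (OCTN2) brings carnitine into the cell, and Cpt1a, on the outer mitochondrial membrane, joins the acyl group to it. Slc25a20 exchanges the acylcarnitine for free carnitine across the inner membrane, and Cpt2 returns the acyl group to CoA inside. Crat acts on acetyl and other short chains, and Crot handles medium chains released by peroxisomes. In liver the step at Cpt1a is inhibited by malonyl-CoA and sets the pace of fat oxidation, which is high in fasting and low after feeding.

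All 6 shuttle genes had lower means in DECB than in control livers. Slc22a5 was 4.82-fold lower, Cpt1a 4.34-fold, Crot 3.33-fold, Crat 2.04-fold, Slc25a20 1.89-fold and Cpt2 1.61-fold. In a limma fit over all genes, 0 of the 6 passed at a Benjamini-Hochberg adjusted p under 0.05, the threshold used throughout, where 0.257% of all genes tested were called lower. At an unadjusted p under 0.05, 4 of the 6 were lower, against 5.79% of all genes. The 3 DECB arrays lay below the 3 control arrays for 4 of the 6, against 9.4% of all genes. An exact permutation test on 3 against 3 arrays cannot give a p below 0.1, and those 4 genes, Slc22a5, Cpt1a, Slc25a20 and Crot, had that value.

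The arrays differed by scan. By the scan times in the file headers, control 1 and DECB 6 shared scan 1, controls 2 and 3 and DECB 4 shared scan 2, and DECB 5 was alone in scan 3. The 75th percentile of the signal was 78.8 and 84.8 in scan 1 and 422 to 551 on the other arrays, which is 3.75 to 4.04 and 25.0 to 30.6 times the local background. Pearson's r across genes was 0.949 to 0.992 for pairs within a scan and 0.901 to 0.963 for other pairs, genes not being independent replicates. Controls 2 and 3 were the most alike controls, and with both averaged as 1 sample limma called 0 of the 6 genes, with 4 at an unadjusted p under 0.05 and adjusted p from 0.298 to 0.999. With scan as a block in the limma fit, 4 of the 6 genes were called lower (Slc22a5, Cpt1a, Crat and Crot), against 3.92% of all genes. That fit has 2 residual degrees of freedom, and DECB 5 adds nothing to its contrast. At the probe used for each, all 6 genes were lower on DECB arrays than on each control array of the same scan. This held in both scans that had both groups, as it did for 32.7% of all genes. Hepatocyte markers with a probe, 9 of 10 listed, were well above background on all 6 arrays. Their summed levels were 11.10 to 11.31 in controls and 10.91 to 11.20 in DECB (log2, relative to the array's upper quartile). Such a sum is led by the brightest genes. By gene, their median difference was -0.31, against -0.027 over all genes, from -1.26 (Apob) to 0.17 (Fgb), and limma called 0 of the 9. In summed level, of 10 marker lists only cholangiocyte markers, whose probes covered 6 of 6 genes with Krt7 not well above background on any array, did not overlap, from 0.044 to 0.55 in controls and from 0.67 to 1.06 in DECB. Of their 4 tested genes limma called 0, with 2 at an unadjusted p under 0.05, and the part of these cells in the shuttle result was not tested. With scan as a block limma called 2 of 44 marker genes higher and 1 lower, against 2.73% and 3.92% of all genes. These were the leukocyte markers S100a8 (1.56, limma adjusted p = 0.0311) and S100a9 (1.65, limma adjusted p = 0.0216), and Stab2, a scavenger receptor of liver endothelium (-1.05, limma adjusted p = 0.0465). They were named after their values were seen. S100a8 was well above background on 2 of 3 control arrays. In the same fit the leukocyte markers Ptprc, Nkg7 and Cd79a differed by -0.032, -0.090 and 0.78, none called. Other endothelial markers went both ways, at 0.28 (Cdh5), 0.21 (Lyve1), 0.16 (Pecam1), -0.13 (Clec4g) and -0.22 (Kdr), none called. The part of S100a8, S100a9 and Stab2 in the shuttle result was not tested either. In whole liver, fewer cells of a type and less RNA per cell cannot be told apart.

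**Figure D1:**
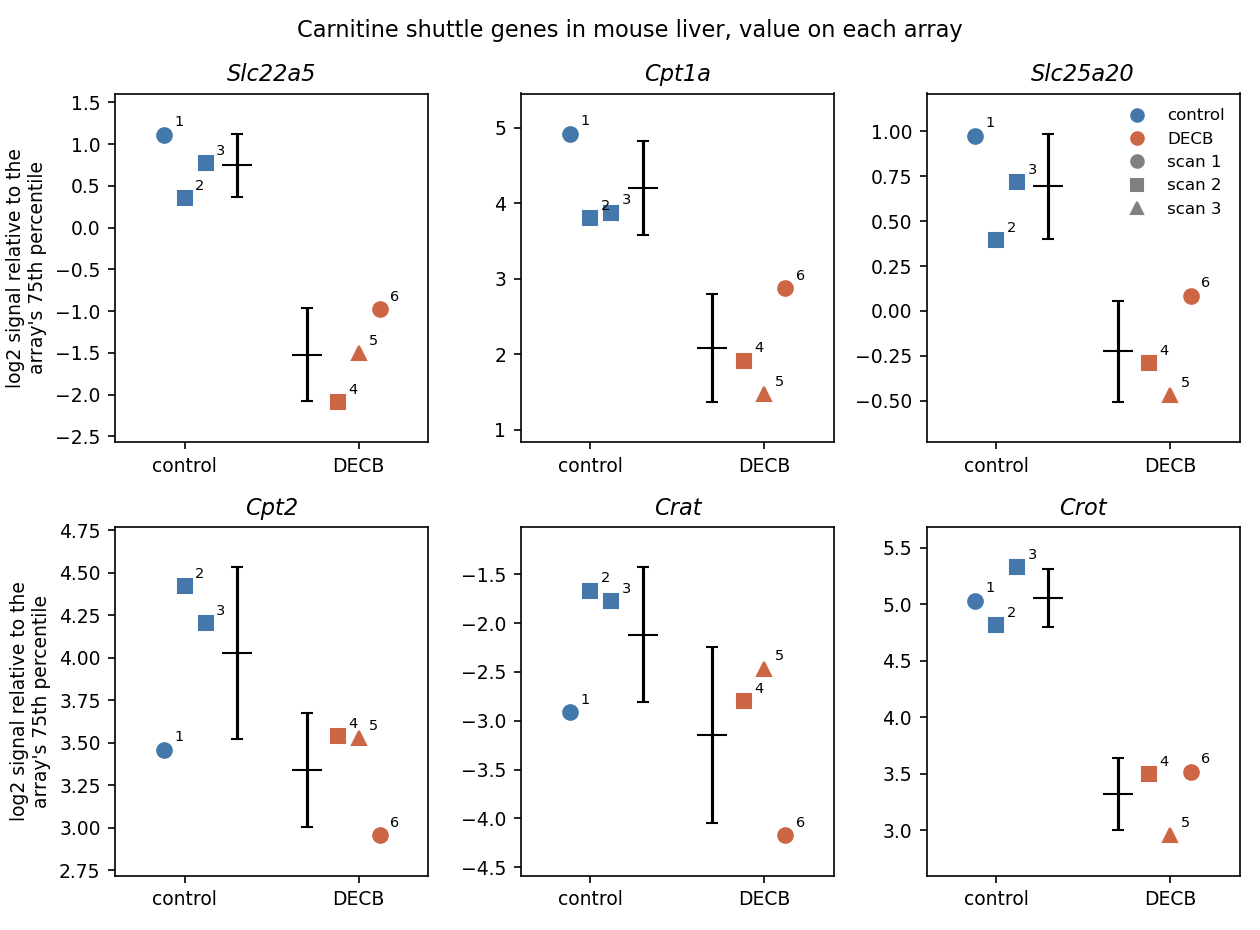
Each point is the relative log2 signal of a shuttle gene (log2 of the signal minus that of the array's 75th percentile) on 1 array, numbered as the arrays and shaped by scan; bars are the mean and SD of 3 arrays. Control and DECB points do not overlap for Slc22a5, Cpt1a, Slc25a20 and Crot, and overlap for Cpt2 and Crat.

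Slc22a5, the carnitine importer of the plasma membrane, differed most with all 6 arrays; Cpt1a differed more with normexp background correction (-2.07 against -1.70), without control 3 (-2.28 against -2.26) and without DECB 4 (-2.03 against -1.99). Its relative log2 signal, the log2 of the signal minus that of the 75th percentile of the same array, was 1.11, 0.36 and 0.77 on controls 1, 2 and 3, and -2.09, -1.51 and -0.97 on DECB 4, 5 and 6. Every DECB array was below every control array, with DECB 4 the lowest. The control mean was 0.75 ± 0.38 and the DECB mean -1.52 ± 0.56 (SD, n = 3), which differ by -2.27 (SE 0.38), with a limma adjusted p = 0.0682. With scan as a block the difference was -2.41 (SE 0.23, limma adjusted p = 0.0196). Within scan 1 it was -2.09, and within scan 2, -2.65. The probe was well above background on all 6 arrays, at 2.05 times the local background on DECB 6 and 52.2 times on control 3. With only the 9369 genes well above background on all arrays in the limma fit, Slc22a5 passed (adjusted p = 0.0394).

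Cpt1a, the liver form of carnitine palmitoyltransferase of the outer membrane, showed 4.92, 3.80 and 3.88 on controls 1, 2 and 3. On DECB 4, 5 and 6 it was at 1.91, 1.47 and 2.87 (relative log2 signal). The groups did not overlap, and the array of scan 1 was the highest in each. The mean was 4.20 ± 0.63 in controls and 2.08 ± 0.72 in DECB (SD, n = 3), a difference of -2.12 (SE 0.48), with a limma adjusted p = 0.143. In the fit with scan as a block the difference was -1.98 (SE 0.15, limma adjusted p = 0.01775), close to the -2.05 within scan 1 and the -1.93 within scan 2. It also passed with normexp background correction of the raw signals, at -2.07 (limma adjusted p = 0.0424).

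This Cpt1a probe was printed as 10 spots, of which 9 or 10 per array were usable. The SD over the spots of an array ran from 0.0542 to 0.122. The spread between arrays of a group, which includes scan, was several times the spread between spots. Controls 2 and 3, of the same scan, were at 3.80 and 3.88, with spot SDs of 0.067 and 0.104. A second Cpt1a probe, dimmer and with 1 spot, read -1.06, -1.16 and -1.0 on controls 1, 2 and 3 and -2.16, -2.73 and -3.51 on DECB 4, 5 and 6. Its groups did not overlap either, with a difference of -1.72. On DECB 6 the second probe was not well above background, so its value there is only a bound.

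Slc25a20, the carnitine-acylcarnitine translocase of the inner membrane, differed less. Controls 1, 2 and 3 gave 0.97, 0.39 and 0.72, and DECB 4, 5 and 6 gave -0.29, -0.47 and 0.085 (relative log2 signal). No DECB array reached the lowest control. The mean of 0.69 ± 0.29 in controls and -0.22 ± 0.28 in DECB (SD, n = 3) gives a difference of -0.92 (SE 0.30, limma adjusted p = 0.351). It did not pass with scan as a block, where the difference was -0.86 (SE 0.18, limma adjusted p = 0.0585). Within scans 1 and 2 the differences were -0.89 and -0.84.

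Cpt2, which regenerates acyl-CoA on the matrix side, had the smallest difference of the 6 with all arrays, but not with normexp (-0.61, against -0.44 for Crat) or without control 1 (-0.97, against -0.78 for Slc25a20). The values were 3.46, 4.42 and 4.21 on controls 1, 2 and 3 against 3.54, 3.53 and 2.96 on DECB 4, 5 and 6 (relative log2 signal). Control 1 lay below DECB 4 and DECB 5, so the groups overlapped, and in each group the scan 1 array was the lowest. The means were 4.03 ± 0.50 and 3.34 ± 0.33 (SD, n = 3), a difference of -0.69 (SE 0.36, limma adjusted p = 0.6245), and -0.66 with scan as a block (SE 0.17, limma adjusted p = 0.0913). A second, dimmer Cpt2 probe was well above background on all 6 arrays and differed by -0.070, from -1.40, -2.11 and -1.45 on controls 1, 2 and 3 to -1.57, -2.19 and -1.40 on DECB 4, 5 and 6. Its groups overlapped fully, and DECB 4 lay above control 2 and below control 3 of the same scan. The 2 probes thus disagree, and averaging them gave -0.38. In scan 1 the dimmer probe was at only 1.49 (control 1) and 1.78 (DECB 6) times the local background.

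**Figure D2:**
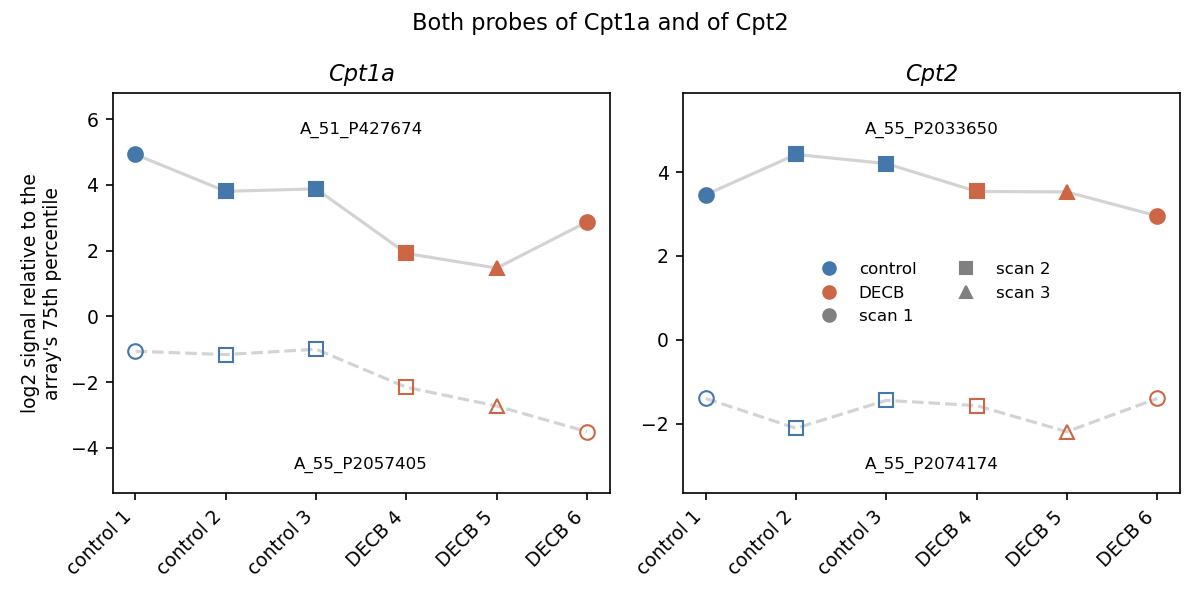
Relative log2 signal on each array for both probes of Cpt1a and of Cpt2; filled points are the brighter probe used for the gene, open points the dimmer one, and lines only link values of a probe. Both Cpt1a probes are lower on all DECB arrays (differences of -2.12 and -1.72), while the Cpt2 probes differ by -0.69 (brighter) and -0.070 (dimmer).

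Crot, the peroxisomal carnitine octanoyltransferase, was at 5.03, 4.81 and 5.33 on controls 1, 2 and 3 and at 3.49, 2.96 and 3.52 on DECB 4, 5 and 6 (relative log2 signal). The groups were separated by more than the range within either. The mean of 5.06 ± 0.26 in controls and 3.32 ± 0.32 in DECB (SD, n = 3) gave a difference of -1.74 (SE 0.30), with a limma adjusted p = 0.0775. With scan as a block it was -1.55 (SE 0.21, limma adjusted p = 0.0323), and within scans 1 and 2 it was -1.51 and -1.58. Crot also passed among genes well above background on all arrays (limma adjusted p = 0.0452).

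Crat, carnitine acetyltransferase, was dim, and was well above background on 4 of 6 arrays, those of scans 2 and 3. Its values were -2.91, -1.67 and -1.77 on controls 1, 2 and 3 and -2.80, -2.47 and -4.17 on DECB 4, 5 and 6 (relative log2 signal). Control 1, not well above background, lay below DECB 4 and DECB 5, and DECB 6, not well above background either, was the lowest. The means were -2.12 ± 0.69 and -3.15 ± 0.91 (SD, n = 3), a difference of -1.03 (SE 0.55, limma adjusted p = 0.64). Scan as a block gave -1.16 (SE 0.16, limma adjusted p = 0.0321), a value that draws on both dim arrays. Without DECB 6 the difference was -0.51, and with normexp it was -0.44. Over the 4 arrays of scans 2 and 3 it was -0.91 (limma adjusted p = 0.104). In that fit 0 of the 6 shuttle genes passed, where 0.311% of all genes were called lower. All 6 had an unadjusted limma p under 0.05, as did 3416 of 14804 genes in either direction.

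**Figure D3:**
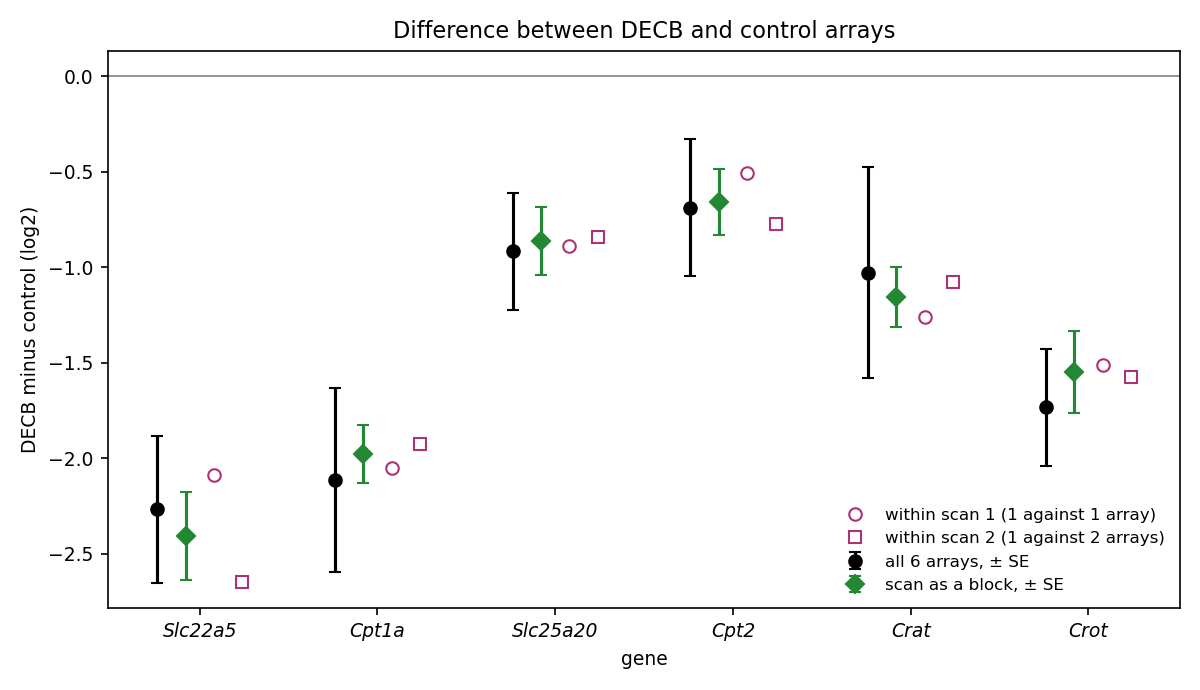
Difference of DECB minus control on the log2 scale for each shuttle gene: with all 6 arrays and with scan as a block (points with SE from limma), and within scans 1 and 2 (open points, no error). All values are below 0, from -2.65 for Slc22a5 within scan 2 to -0.51 for Cpt2 within scan 1.

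The scan 1 arrays differed from the others in unlike ways over the shuttle genes. On controls, scan 1 stood above the mean of the other arrays by 1.08 for Cpt1a, 0.55 for Slc22a5 and 0.42 for Slc25a20, and differed by -0.039 for Crot, -0.85 for Cpt2 and -1.19 for Crat. On DECB arrays the same comparison gave 1.18, 0.82, 0.46, 0.29, -0.58 and -1.54 in that order. The sign was shared by both groups for 5 of the genes and not for Crot, which had the smallest shift. Each of these offsets sets 1 array against a pair, with no test.

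The sizes of the differences were unequal across the genes. Within an array, the log2 ratio of Slc22a5 to Slc25a20 was 0.14, -0.036 and 0.056 on controls 1, 2 and 3 and -1.80, -1.04 and -1.06 on DECB 4, 5 and 6. This ratio, of importer to translocase, differed by -1.35 without overlap between groups. The ratio of Cpt1a to Slc25a20 differed by -1.20 and that of Slc25a20 to Crot by 0.82, both without overlap. Those are the 3 of 15 possible pairs that did not overlap. Of 14750 single genes, 1387 did not overlap with DECB lower and 1068 with DECB higher. The share over pairs of other genes was not taken. For Cpt1a against Cpt2, the pair of acyltransferases on either side of the inner membrane, the ratio differed by -1.43 but overlapped, being -0.62 on control 2 and -0.085 on DECB 6. With 3 arrays a group no such ratio can reach an exact permutation p below 0.1.

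Since the shuttle genes were lower together, their promoters are shown for the 3 genes with the largest differences and for Cpt2, the gene with the smallest when all arrays are used. RefSeq windows of 300 bases (250 before to 50 after the transcription start, build GRCm38.p6) matched 5 of the 6 genes. They were searched on both strands for AGGTCANAGGTCA, the direct repeat bound by PPAR and RXR, and its half-site AGGTCA; TNAAGGTCA, bound by estrogen-related receptors; GGGCGG, the GC box; CCAAT; CCGGAAGT, of ETS factors; CACGTG, the E-box; and TATAAA. Capitals mark every match in the sequences, which run 5′ to 3′ on the strand of the gene. Slc22a5 lies on chr11:53891654-53891953 (minus strand), Cpt1a on chr19:3323051-3323350 (plus strand), Crot on chr5:8997097-8997396 (minus strand) and Cpt2 on chr4:107923540-107923839 (minus strand).
Slc22a5: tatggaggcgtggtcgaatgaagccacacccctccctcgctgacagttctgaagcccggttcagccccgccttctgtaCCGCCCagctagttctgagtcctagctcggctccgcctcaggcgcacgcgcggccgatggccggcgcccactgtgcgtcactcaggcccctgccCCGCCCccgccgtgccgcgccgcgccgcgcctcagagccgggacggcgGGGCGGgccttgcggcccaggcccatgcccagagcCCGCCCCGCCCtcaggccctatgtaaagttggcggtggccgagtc
Cpt1a: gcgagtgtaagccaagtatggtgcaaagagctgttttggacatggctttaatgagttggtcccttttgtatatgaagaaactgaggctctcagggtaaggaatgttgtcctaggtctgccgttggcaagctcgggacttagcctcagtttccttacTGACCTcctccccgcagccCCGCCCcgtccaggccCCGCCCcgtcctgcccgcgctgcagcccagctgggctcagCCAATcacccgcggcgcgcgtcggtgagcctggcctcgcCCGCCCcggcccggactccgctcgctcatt
Crot: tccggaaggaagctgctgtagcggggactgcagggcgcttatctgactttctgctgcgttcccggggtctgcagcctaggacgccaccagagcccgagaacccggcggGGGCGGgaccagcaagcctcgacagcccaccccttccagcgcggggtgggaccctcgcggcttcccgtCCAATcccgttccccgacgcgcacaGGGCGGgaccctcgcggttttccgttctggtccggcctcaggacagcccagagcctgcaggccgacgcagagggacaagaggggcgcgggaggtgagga
Cpt2: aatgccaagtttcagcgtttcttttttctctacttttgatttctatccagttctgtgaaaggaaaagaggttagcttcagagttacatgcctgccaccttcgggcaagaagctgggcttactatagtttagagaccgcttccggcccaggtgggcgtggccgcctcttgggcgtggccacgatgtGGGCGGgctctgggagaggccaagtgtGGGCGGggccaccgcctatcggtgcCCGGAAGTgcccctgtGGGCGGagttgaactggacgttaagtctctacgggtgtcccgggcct
All 5 windows held a GC box, which 35.7% of 32851 promoter windows held: 5 matches in Slc22a5, 3 each in Cpt1a, Slc25a20 and Cpt2, and 2 in Crot. The windows were GC-rich, at 57.3% (Cpt2) to 72.7% (Slc22a5) G or C, against a median of 52.7% over all windows. CCGGAAGT was present in Cpt2 and Slc25a20 (3.89% of all windows) and CCAAT in Cpt1a and Crot (37.4%). Cpt1a alone held the half-site AGGTCA (16.3%), starting at -94 from the transcription start, and none of the 5 held the full repeat AGGTCANAGGTCA (0.0396%), TNAAGGTCA (1.28%), CACGTG (7.15%) or TATAAA (13.6%). These matches describe letters in a short window and say nothing of binding.

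Around the shuttle, 62 of 66 genes in 8 lists were measured, and 52 of the 62 lay below 0, as did 52.5% of all genes. Their median difference was -0.50, against -0.027 over all genes. limma called 0 of the 62, where all genes gave 0.257% lower and 0.209% higher calls. At an unadjusted p under 0.05, 16 were lower and 1 higher, against 5.79% and 4.22% of all genes. With scan as a block, 14 were called lower and 0 higher, against 3.92% and 2.73% of all genes. The shuttle's own median was -1.38 over 6 genes.

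**Figure D4:**
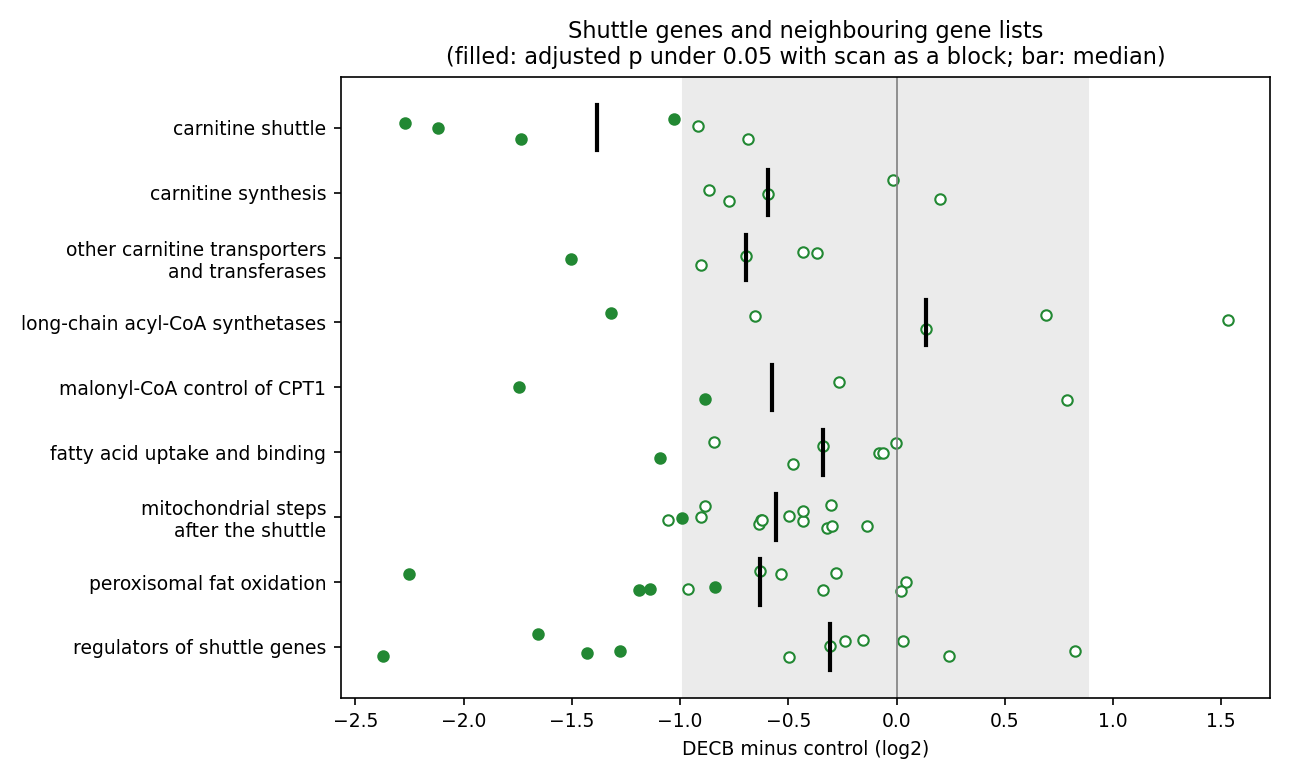
Difference of DECB minus control (log2) for each measured gene of the shuttle and of 8 neighbouring lists; filled points had a limma adjusted p under 0.05 with scan as a block, bars are list medians, and the grey band spans the 5th to 95th percentile of all genes (-0.99 to 0.88). Shuttle genes range from -2.27 to -0.69, and all 14 mitochondrial genes after the shuttle lie between -1.05 and -0.14.

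Upstream of the shuttle, genes of fatty acid uptake and binding had a median of -0.34 over 7 genes. This median was -0.15 without control 2 and -0.11 without DECB 6. All 7 were below 0, as were 52.5% of all genes, from -1.09 (Cd36) to -0.0037 (Slc27a1). Slc27a1 was above 0 with scan as a block (0.050). Cd36, a fatty acid translocase, differed by -1.09 (limma adjusted p = 0.253; 0.0434 with scan as a block), and Slc27a5, a very long-chain and bile acid CoA ligase of liver, by -0.84 (limma adjusted p = 0.4095). Long-chain acyl-CoA synthetases, which make the substrate of Cpt1a, went both ways, with 2 of 5 below 0 and a median of 0.14. That median was the value of Acsl6, a dim gene well above background on 2 control arrays and 1 DECB array. Acsl1, the main form in liver, went from 6.99 ± 0.14 to 5.68 ± 0.32 (relative log2 signal, SD, n = 3), so it differed by -1.32 (limma adjusted p = 0.137; 0.0309 with scan as a block). Acsl3, of the endoplasmic reticulum and lipid droplets, differed by 1.53 (limma adjusted p = 0.372), with all DECB arrays above all controls. Acsl3 was not well above background on 1 control array, and its difference was 1.00 without control 1 and 0.95 with normexp.

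The enzymes that set malonyl-CoA, the inhibitor of Cpt1a, had a median of -0.57 over 4 genes. Of the 4, 2 were called lower with scan as a block (Acacb and Mlycd), against 3.92% of all genes. Mlycd differed by -0.88 with all arrays (limma adjusted p = 0.703) and by -0.86 with scan as a block (limma adjusted p = 0.0460). Acacb, the acetyl-CoA carboxylase placed at mitochondria, was at 4.12 ± 0.07 in controls and 2.37 ± 0.30 in DECB (relative log2 signal, SD, n = 3). The difference of -1.74 had a limma adjusted p = 0.0655, and 0.0198 with scan as a block. Fasn, fatty acid synthase, which consumes malonyl-CoA, differed by 0.79 (limma adjusted p = 0.668), and by 0.46 without DECB 6. Carnitine synthesis genes had 4 of 5 below 0 and a median of -0.59. Bbox1, which makes carnitine in its last step, differed by -0.87 (limma adjusted p = 0.435), and Shmt1, a serine hydroxymethyltransferase, by -0.59 (limma adjusted p = 0.702).

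Other carnitine transporters and transferases had a median of -0.70 over 5 measured genes of 8, with all 5 below 0, as were 52.5% of all genes. The median was -0.40 without control 3. Slc22a16 and Slc22a21 were each well above background on 2 control arrays and 1 DECB array only. Within scan 1 Slc22a21 differed by 0.84. Cpt1b, the muscle form of the outer membrane enzyme, went from -0.43 ± 0.56 to -1.93 ± 0.98 (relative log2 signal, SD, n = 3), so it differed by -1.50 (limma adjusted p = 0.414; 0.0394 with scan as a block), and by -0.99 with normexp. Skeletal muscle markers, all 5 with a probe and none of them well above background on all 6 arrays, had summed levels of -2.54 to -1.30 in controls and -1.92 to -1.02 in DECB. Slc25a29, a mitochondrial carrier of basic amino acids once described as carnitine carrier-like, differed by -0.70 (limma adjusted p = 0.703), by -0.38 without control 1 and by -0.45 with normexp.

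Downstream, the 14 mitochondrial genes of the steps after the shuttle had a median of -0.56 (-0.33 without control 1 and -0.25 without DECB 5). Of the 14, 1 was called lower with scan as a block, against 3.92% of all genes. That gene was Decr1, at -0.90 in that fit (limma adjusted p = 0.0421). Etfdh, which passes electrons from acyl-CoA dehydrogenases to ubiquinone, differed by -1.05 (limma adjusted p = 0.316, and 0.0537 with scan as a block). Acadl, long-chain acyl-CoA dehydrogenase, differed by -0.64 (limma adjusted p = 0.5185, and 0.101 with scan as a block). In peroxisomes, whose shortened chains leave through Crot and Crat, 9 of 11 measured genes were below 0, with a median of -0.63. Of the 11, 4 were called lower with scan as a block, against 3.92% of all genes. Ehhadh, the peroxisomal bifunctional enzyme, went from 4.29 ± 0.39 to 2.04 ± 0.48 (relative log2 signal, SD, n = 3), so it differed by -2.25 (limma adjusted p = 0.0675; 0.0293 with scan as a block). Acaa1b, a peroxisomal thiolase, differed by -1.19 (limma adjusted p = 0.149; 0.0462 with scan as a block).

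Among 11 regulators linked to shuttle genes, 8 were below 0 and the median was -0.31 (from -0.61 without DECB 6 to -0.028 without control 1). Ppara, the fatty acid-sensing receptor that drives Cpt1a in fasting, was at 5.23 ± 0.26 in controls and 3.57 ± 0.13 in DECB (relative log2 signal, SD, n = 3). The difference of -1.66 (SE 0.28) had a limma adjusted p = 0.0679, and 0.0217 with scan as a block. Ppargc1b, a coactivator of mitochondrial genes, was well above background on 3 control arrays and 1 DECB array, so it met the filter on dim probes through the controls, where it was higher, and 2 of its DECB values are not well above background. Its difference of -2.37 (limma adjusted p = 0.175) was -1.18 with normexp, and its call with scan as a block rests on those values.

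The genes most like each shuttle gene over the 6 arrays were found by the root-mean-square difference between profiles centred on their means, among 9336 or 9337 genes well above background on all arrays. For Slc22a5, whose own spread was 1.20 on this log2 measure, they were Slc25a34, a mitochondrial carrier (0.160), Gprin3 (0.171) and Upp2, a uridine phosphorylase (0.177). For Cpt1a (spread 1.19) they were Etnppl, an ethanolamine phosphate lyase (0.134), Got1, the cytosolic aspartate aminotransferase (0.146), and Angptl4, a secreted inhibitor of lipoprotein lipase (0.153). Crot (spread 0.899) was nearest to Sulf2 (0.123), Acacb (0.173) and Nceh1, a cholesterol ester hydrolase (0.203). Slc25a20 (spread 0.516) was nearest to Ces1e, a carboxylesterase (0.0588), Dmgdh, of choline breakdown (0.0679), and Bbox1 (0.0877). Cpt2 (spread 0.490) lay nearest to C87436 (0.103), Cyp2j8 (0.110) and Fbh1 (0.122), and Crat (spread 0.834) to Ces2c (0.118), Abhd14b (0.124) and Ephx2 (0.132). These 18 genes all had lower DECB means, from -0.51 for C87436 to -2.45 for Slc25a34, as the search itself favours. Without DECB 6 the genes nearest to Crat differed by -0.38 (Ces2c), -0.40 (Abhd14b) and -0.48 (Ephx2), against -0.86, -0.89 and -0.89 with all arrays, and C87436 and Fbh1 by -0.28 and -0.33, against -0.51 and -0.59. Without control 1, Abhd14b and C87436 differed by -1.35 and -0.80, and Ces2c was at -0.57 without control 2. The profiles share the scan offsets, so likeness includes them.

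**Figure D5:**
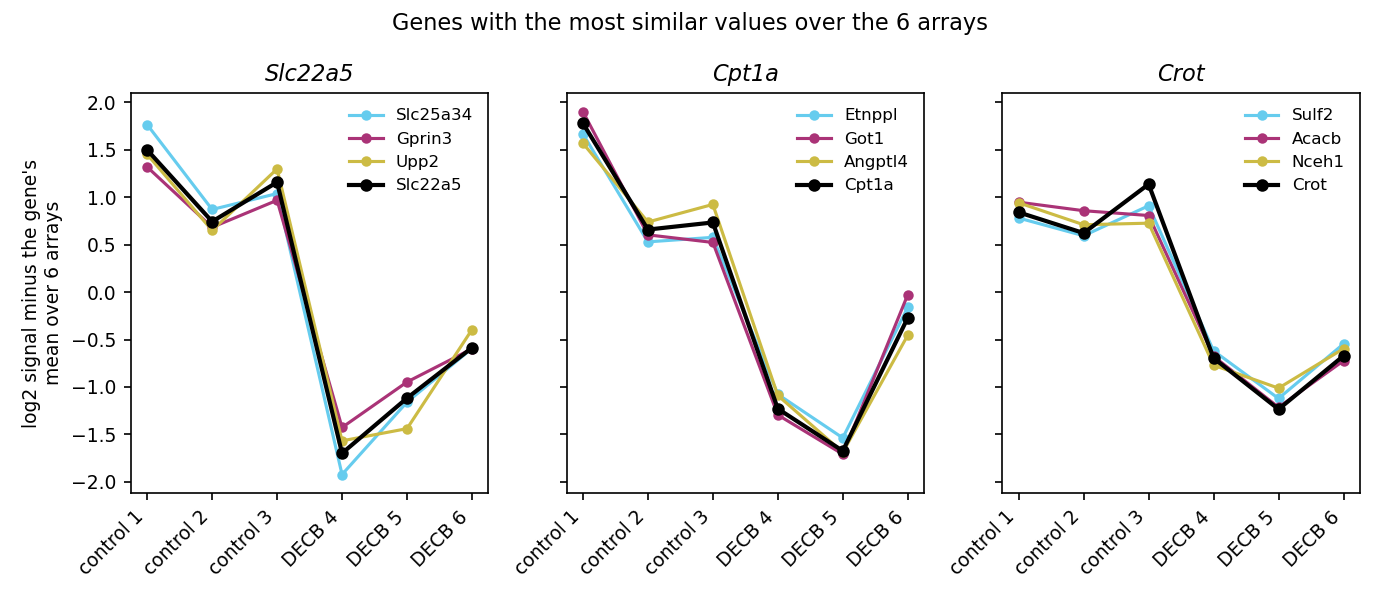
Log2 signal minus each gene's mean over the 6 arrays for Slc22a5, Cpt1a and Crot (black) and the 3 genes nearest to each (colours); lines only link values of a gene. The profiles differ from their shuttle gene by 0.123 to 0.203 (root-mean-square, log2).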

How the data were processed

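Liver RNA was measured on 6 Agilent 1-colour arrays, 3 per group, grouped by sample title. Per the file headers and the submitters' processing notes, the authors extracted the deposited intensity values with Agilent Feature Extraction 11.0.1.1; the processed signal is background-subtracted and detrended, with no normalization between arrays. The 1377 control spots and 164 to 322 outlier spots an array were dropped, and none was saturated. From the log2 of the processed signal, that of the array's 75th percentile was subtracted, and spots of a probe were averaged. Kept probes were well above background on at least 3 of 6 arrays (25418 of 39429). RefSeq names (GRCm38.p6) were found for 27234 of 28684 probes with a RefSeq accession. The brightest probe stood for a gene. The array design is on mm9, so no probe coordinates are given. Tests used limma 3.58.1 in R 4.3.3, two-sided, on 14805 genes. The fit without a block was checked on simulated data. Those data had no scan effect, so the check does not cover scan offsets or the fit with scan as a block. The number of arrays limits precision. The text names all 6 shuttle genes, the 2 genes of smallest p in each neighbouring list (no list had a called gene), and the 3 genes most like each shuttle gene. Decr1, Mlycd, Slc27a1 and marker genes were named in addition, for their values, and Acsl6, Slc22a16 and Slc22a21 for their dim signal. Members and lists were chosen with earlier results of these data known. Alternatives were normexp (offset 50), quantile and median scaling, no or strict filters, probe means, scan as a block, within scans, arrays left out, and averaging controls 2 and 3.

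The series' value table, deposited on what looks like a log2 scale, has the same median (5.35) in all 6 columns; its making, centring and direction are not given in the sources used here. Against the scanner values of the same array, Pearson's r over 25315 probes was 0.672 to 0.694 for levels and -0.0338 to 0.0441 for deviations from each probe's mean, so it was used in no comparison.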

Additional observations from a re-analysis of the deposited data

How the results depend on the processing

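All 6 shuttle genes stayed below 0 under every alternative that gave a value (17 each, and 16 for Crat, which the strict filter on dim probes removes). Calls were gained and none could be lost, since none passed with all arrays. With scan as a block Slc22a5 (-2.41), Cpt1a (-1.98), Crat (-1.16) and Crot (-1.55) passed. With the strict filter Slc22a5 (-2.27) and Crot (-1.74) passed, and with normexp Cpt1a (-2.07). Over all genes, lower calls were 578 of 14750 with the block, 54 of 9369 with the strict filter and 28 of 14805 with normexp. With 1 array left out no shuttle gene passed (smallest limma adjusted p = 0.0581). Scaling to the median moved the median of all genes by -0.13, and no direction in the shuttle changed.

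Genes called higher and lower, 31 and 38 with all arrays, were 403 and 578 with scan as a block, 16 and 23 with quantile normalization, 0 and 0 with no filter (1257 at an unadjusted p under 0.05) and 0 and 2 with controls 2 and 3 averaged. With 1 array left out they ranged from 0 to 18 higher and from 0 to 35 lower; without control 1, control 3, DECB 4 or DECB 5 limma called 0 (1343, 917, 1221 and 1159 at an unadjusted p under 0.05). The cause was not tested.

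The acyl-CoA synthetase median, 0.14, had no stable sign: 0.39 with quantile normalization, -0.65 with the strict filter, -0.11 without scan 1, 0.62 within scan 1, -0.12 within scan 2, and -0.17 to 0.30 with 1 array left out. The peroxisomal median was -0.44 with quantile normalization, -0.79 without scan 1 and -0.85 to -0.47 with 1 array left out. The shuttle median was -1.74 with the strict filter, that of carnitine synthesis -0.13 within scan 1, and that of the regulators -0.61 to -0.028 with 1 array left out. For other carnitine genes it was -2.145 within scan 2. That is the value of Slc22a16, a dim gene well above background on 2 control arrays and 1 DECB array. Arrays could not be paired by replicate number, because no number in the titles occurs in both groups and every source name carries the same one. Scan was the only block fitted. Dim signal in scan 1 limits Crat and the second Cpt1a probe.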
